A study of Arabidopsis thaliana with 6 samples.

Results

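The transcripts with the strongest signals in mesophyll cells (MCs) of the Arabidopsis thaliana leaf were described here. They were the probe sets chosen by their values on the 3 MC arrays: a log2(NREL), the log2 of the normalized raw expression level, of at least 5 on 2 or more of these arrays. After 64 control probe sets had been left out, 481 of 22746 Arabidopsis probe sets (2.11%) met this rule and are called members below. The study set MCs against bundle sheath cells (BSCs) of the same leaves, to look for transcripts that mark the transport properties of the BSC layer. All plants were of the ecotype Landsberg (Ler) and carried GFP, a green fluorescent protein, driven by the promoter of SCARECROW (SCR), and none was treated. Leaf walls were digested by enzymes, and protoplasts were picked by hand between late morning and early afternoon, MCs for being larger and without fluorescence and BSCs for being smaller and fluorescent. Each of the 6 ATH1 arrays (MC arrays 4, 6 and 8 and BSC arrays 3, 5 and 7, numbered as in their labels) carried RNA of 1 pool of 20 protoplasts, amplified in repeated rounds. An MC pool was thus defined by size and by the lack of fluorescence, and the array was designed on the genome of another ecotype, Columbia.

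Mesophyll cells are the main photosynthetic cells of the leaf. The thylakoid membranes of their chloroplasts hold photosystem II, the cytochrome b6f complex, photosystem I and an ATP synthase, and each of these complexes is built from subunits of which some are encoded in the plastid genome and others in the nucleus. Antenna proteins gather light for both photosystems, the Calvin cycle fixes carbon dioxide in the stroma, and photorespiration recovers carbon from the oxygenation reaction of Rubisco.

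The 4 markers of MCs were all members. NPQ4, the PsbS protein needed for the rapid dissipation of excess light energy, had a log2(NREL) of 8.21, 9.91 and 7.74. LHCB4.1, a minor antenna protein of photosystem II, had 8.18, 9.61 and 7.2, and PSAH-1, which belongs to photosystem I, had 8.28, 9.06 and 7.36. RCA, the Rubisco activase, had 6.69, 8.98 and 6.15. On each of these 4 probe sets MC array 6 was the highest and MC array 8 the lowest of the MC arrays, and all 3 MC arrays lay above 6. On BSC arrays 3, 5 and 7 NPQ4 had 7.91, 7.07 and 4.07 and LHCB4.1 had 8.12, 7.79 and 3.4. PSAH-1 had 7.76, 5.9 and 2.8 there, and RCA had 8.34, 7.57 and 3.66. All 4 thus also reached 5 on BSC arrays 3 and 5, so reaching that level does not by itself set MCs apart. NPQ4 and PSAH-1 were named only through the list of genes that the study chose on these samples, so their naming is not independent of the data. Of 29 listed markers of bundle sheath, vascular, guard and epidermal cells, 2 had a named probe set: SWEET11, a sucrose exporter of the phloem, with 3.43, 3.55 and 2.79, and FMA, a guard cell regulator, with 1.85, 1.83 and 1.98. Neither was a member. The rest had no named probe set here, so other cell types were examined through these 2 genes alone. Fewer cells of a type and less RNA per cell cannot be told apart in such pools.

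The arrays differed in how many probe sets reached 5: 406, 1157 and 425 on MC arrays 4, 6 and 8, and 1147, 613 and 78 on BSC arrays 3, 5 and 7. BSC array 7 stood apart from the others, and counts of members on the BSC arrays are therefore also given without it. The median of all Arabidopsis probe sets was close to 2 on every array (2.01, 1.89 and 2.02 on the MC arrays and 1.88, 1.97 and 2.06 on the BSC arrays), so that the level of 5 lay about 3 log2 units above the middle of an array. Ranks within an array (1 being the highest of the 22746) order the signals of probe sets, which also depend on how well each probe set binds its target, and they do not order transcript amounts. Arrays carry no count of depth, and the number of arrays, 3 in each cell type, limits the precision. No test was run on the members, because the values that chose them are those described.

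Of the 481 members, 305 (63.4%) reached 5 on all 3 MC arrays. A further 82 fell short on MC array 4 alone, 71 on MC array 8 alone and 23 on MC array 6 alone. A name could be given to 217 members that stood for 1 gene, 15 stood for several genes and 249 had no name here, and the functions described below are those of the named members. Among all 13559 named probe sets 1.6% were members, and this share is the background for the shares below. Named members were spread over the 5 nuclear chromosomes, with 0.863 to 1.71% of the named probe sets of each. In the plastid genome 37 of 69 named probe sets (53.6%) were members, whereas outside it 180 of 13490 (1.33%) were.

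Genes of the plastid genome led the MC arrays, and the probe set of second-best mean rank had no name here. Of the 25 named members with the best mean rank, 15 were plastid genes and 10 were nuclear. Named plastid probe sets took 9, 8 and 12 of the first 25 ranks on MC arrays 4, 6 and 8. They took 7, 8 and 5 of them on BSC arrays 3, 5 and 7, so they were prominent there too. psbA, which encodes the D1 protein of the photosystem II reaction centre, held rank 1 on each MC array, with a log2(NREL) of 11.77, 11.75 and 12.1. It also held rank 1 on each BSC array, with 11.53, 11.92 and 9.12. The D1 protein is known to be damaged by light and replaced continuously. psbD, for the partner protein D2, had 9.86, 10.99 and 10.48 on the MC arrays. psbB and psbC, for the inner antenna proteins of the photosystem II core, had 9.68, 10.62 and 10.34 and 9.22, 10.34 and 10.31. On all 3 of these genes MC array 4 was the lowest of the MC arrays and MC array 6 the highest, while psbA was highest on MC array 8.

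**Figure D1:**
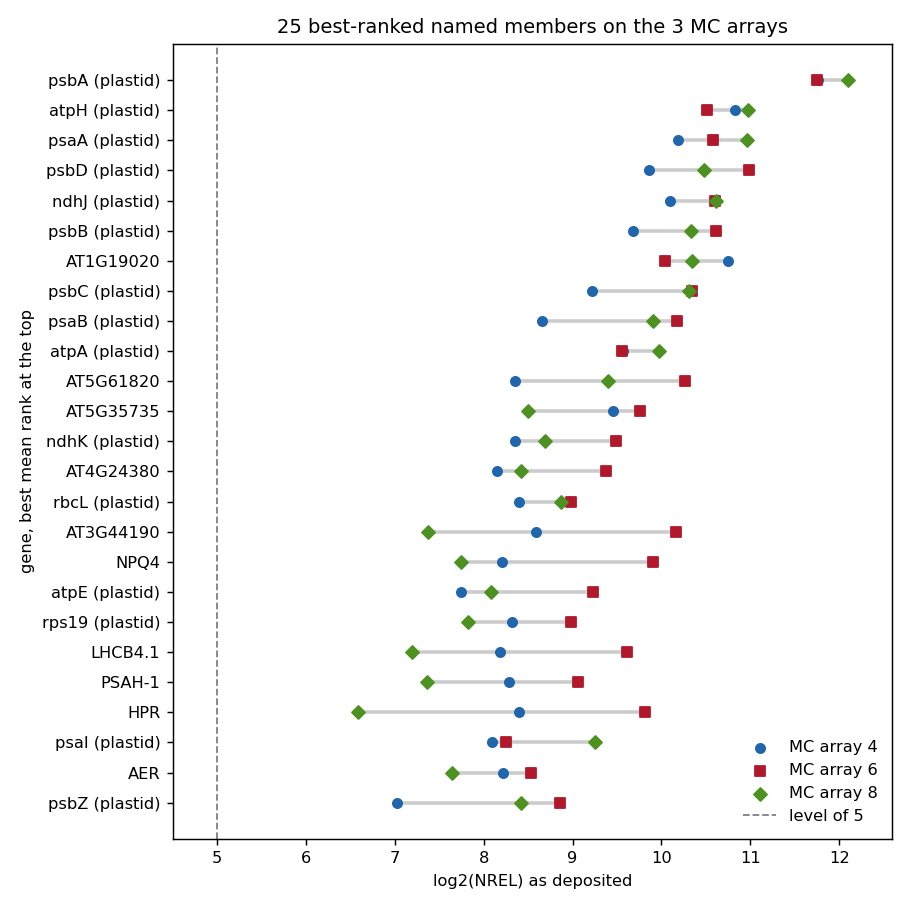
Values of the 25 named members with the best mean rank, as log2(NREL), on MC arrays 4, 6 and 8, with the gene of best rank at the top and a grey bar over the range of the 3 arrays. The 15 plastid genes include the whole upper end except AT1G19020, and psbA stands alone above 11 on every MC array.

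The reaction centre genes of photosystem I, psaA and psaB, were also among the leading members. psaA had a log2(NREL) of 10.19, 10.58 and 10.97 and psaB had 8.66, 10.18 and 9.91, so that MC array 4 was the lowest on both. psaI, for a small subunit of the same complex, was highest on MC array 8, with 8.1, 8.25 and 9.25. The other plastid genes of photosystem I with a named probe set were not members, and both lay under 3 on every MC array: psaC, for the subunit that carries the terminal iron-sulfur clusters, had 1.69, 2.45 and 1.82 and psaJ had 2.14, 2.24 and 2.79. Each of them is the signal of a single probe set, and these transcripts were not measured in another way here.

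The plastid ATP synthase had the largest share of members among the plastid complexes, 5 of 6 genes. atpH, for the proton-translocating ring subunit, ranked 3, 13 and 2 on MC arrays 4, 6 and 8, with 10.82, 10.51 and 10.97. atpA, for the alpha subunit, had 9.56, 9.55 and 9.97 and varied little over the MC arrays. atpB, for the catalytic beta subunit, had 3.3, 8.34 and 5.41, which put it under 5 on MC array 4 but well above it on MC array 6. atpI, the gene that was no member, had 2.95, 3.1 and 2.84.

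Of the genes of the NDH complex, which cycles electrons around photosystem I, 6 of 10 were members. ndhJ, with 10.09, 10.6 and 10.61, and ndhK, with 8.35, 9.49 and 8.69, were the steadiest of them. ndhC had 7.24, 7.96 and 8.18, ndhI had 5.61, 6.83 and 6.68, ndhE had 4.04, 7.73 and 7.21 and ndhD had 3.99, 7.5 and 6.45, and MC array 4 was the lowest on all 4. ndhF and ndhH, in contrast, lay under 2 on each MC array. For the cytochrome b6f complex 4 of 6 genes were members: petB with 6.86, 8.52 and 8.16, petA with 5.77, 6.71 and 5.84, petD with 4.95, 5.09 and 5.36 and petG with 2.55, 6.12 and 5.05. Only petB and petA reached 5 on all 3 MC arrays.

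Among the plastid genes for gene expression 3 of 15 ribosomal protein genes and 1 of 4 RNA polymerase genes were members, and among the plastid genes of photosystem II 9 of 15 were. These shares were not tested against each other. rps19, for a protein of the small ribosomal subunit, had 8.32, 8.99 and 7.82 and rps4 had 7.46, 8.46 and 8.05. rps14 had 4.54, 7.02 and 5.44, and rpoA, the alpha subunit of the plastid-encoded RNA polymerase, had 5.38, 6.04 and 5.84. The remaining plastid members included rbcL, the large subunit of Rubisco, with 8.4, 8.98 and 8.87, accD, a subunit of the acetyl-CoA carboxylase of fatty acid synthesis, with 6.78, 8.21 and 7.35, matK, an intron maturase, with 6.27, 8.47 and 8.01, and clpP, a subunit of the stromal protease, with 6.4, 7.84 and 7.09. All 4 reached 5 on every MC array and had their best rank on MC array 8.

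Probe sets for repeated plastid genes, which cannot be assigned to 1 copy, were members too. The probe set of rps7 had 10.01, 10.62 and 10.65 and ranked 10, 7 and 5 on MC arrays 4, 6 and 8. That of rpl2 had 9.69, 10.44 and 9.77, and both probe sets of rps12 were members as well. Of 64 pairs of neighbouring plastid genes with both genes named, 25 had both as members, among them psaB with psaA, psbD with psbC and the run ndhJ, ndhK and ndhC. Since 53.6% of the named plastid genes were members, many such pairs arise from that share alone, and whether neighbours were members together more often was not tested. Among 5855 pairs of neighbouring nuclear genes with both named, where the share of members was far lower, there were 3: YLS5 with AT2G38870, AT3G55430 with TPI, and AT5G16960 with AER. Members from the plastid genome had a median gene length of 690 bp, and plastid genes that were not members 361.5 bp. The 177 nuclear members with a name had a median of 2012 bp, and all 13413 named nuclear probe sets 2123 bp.

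Nuclear photosynthesis genes were the other prominent group. The 6 lists of nuclear genes for photosystem I, the antenna, photosystem II, electron transport with ATP synthase, the Calvin cycle and photorespiration held 20 genes with a named probe set, and 16 of them (80%) were members, against 1.6% of all named probe sets. Of the 20 genes, 7 were named only through the list that the study chose on these samples; among the 13 named by the array annotation, 11 (84.6%) were members. These 20 are a small part of the 90 genes on the lists, since most had no named probe set here. A further 4 genes of these lists had a named probe set but were left out because the gene table does not hold the symbol they were listed under. Of these, AT1G11860 was a member and AT2G26500, AT1G56190 and AT1G80380 were not, and with them 17 of 24 genes (70.8%) were members.

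All 3 photosystem I genes were members: PSAH-1, described above, PSAN with 5.98, 8.34 and 5.4, and PSAE-1, a subunit on the stromal side, with 6.56, 7.15 and 5.28. Among 5 antenna genes 4 were members. LHCB4.1 led them, followed by LHCA3, an antenna protein of photosystem I, with 7.46, 8.99 and 6.6. LHCB2.3, of the major antenna, had 6.38, 7.57 and 5.11 and LHCB4.2 had 5.84, 7.69 and 4.23. The exception was LHCB4.3, the third gene of the LHCB4 type, with 2.79, 3.81 and 2.47 and a value under 5 on every MC array.

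For photosystem II 4 of 6 nuclear genes were members. Besides NPQ4 these were PSBW with 7.39, 8.22 and 7.14, PSBQA, a protein of the oxygen-evolving complex, with 7.21, 8.69 and 6.7, and PSBY with 5.53, 5.77 and 3.96. PSBY was above 5 on MC arrays 4 and 6 and under it on MC array 8. The genes PSB27 and PSB28, whose proteins act in the assembly of photosystem II, were not members, with 3.43, 6.46 and 2.64 and 2.35, 2.95 and 1.95. PSB27 reached 5 on MC array 6 alone, and PSB28 on none. In electron transport and ATP synthase, ATPC1, the gamma subunit of the chloroplast ATP synthase, had 4.51, 8.1 and 5.12 and was a member, whereas FD1, a ferredoxin, had 4.29, 4.67 and 2.83 and was not.

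**Figure D2:**
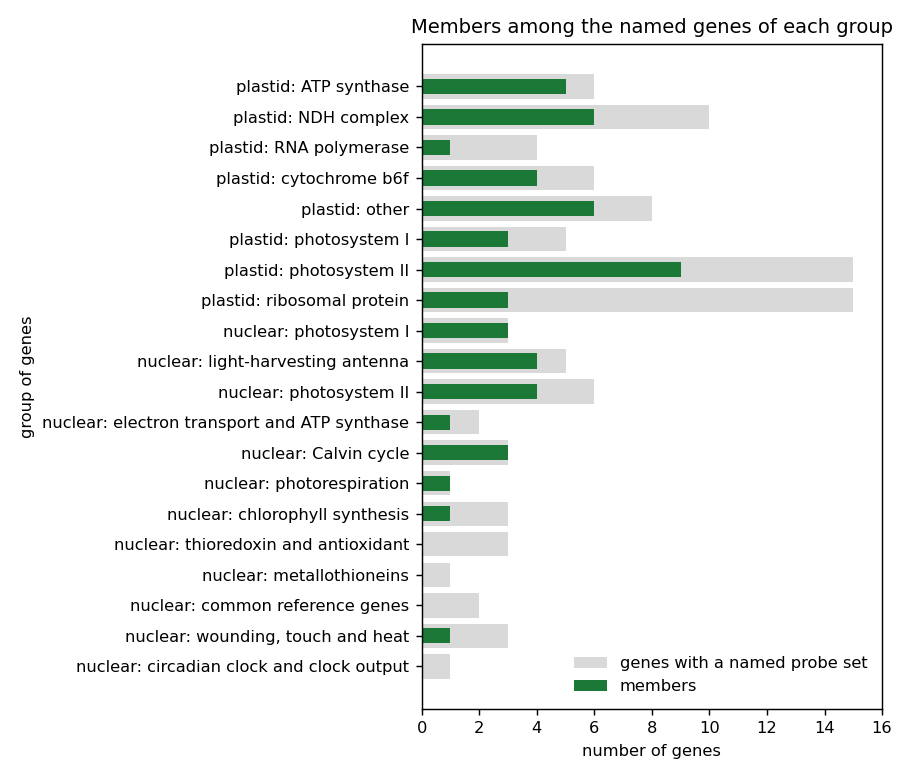
Number of genes with a named probe set (wide grey bars) and of members among them (narrow green bars) for each kind of plastid gene and each list of nuclear genes. Members made up 5 of 6 plastid ATP synthase genes and 16 of the 20 nuclear genes of the 6 photosynthesis lists, and 3 of 15 plastid ribosomal protein genes; listed genes without a matching symbol in the gene table are left out.

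The 3 genes counted for the Calvin cycle were all members. RCA led them, SBPASE, a phosphatase in the regeneration of the carbon dioxide acceptor, had 6.06, 8.22 and 5.66, and PRK, the kinase of the last step of that regeneration, had 5.71, 7.82 and 5.68. PRK had almost the same value on MC arrays 4 and 8 and was higher on MC array 6. The gene counted for photorespiration, HPR, the peroxisomal hydroxypyruvate reductase, had 8.4, 9.82 and 6.59. Its range over the MC arrays was wide, and MC array 8 lay more than 3 log2 units below MC array 6. On BSC arrays 3, 5 and 7 HPR had 10.45, 10.04 and 2.84, so that BSC arrays 3 and 5 both lay above all MC arrays. AT1G11860, listed for photorespiration but not counted, had 6.28, 8.79 and 4.9 on the MC arrays.

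Genes close to the photosynthetic apparatus but outside these lists were members as well. PIFI, a chloroplast protein linked to the rise of chlorophyll fluorescence after illumination, had 5.8, 8.68 and 6.39. AT4G01150, which the gene table also names CURT1A and which shapes the curved margins of thylakoids, had 5.38, 7.81 and 5.46. AT5G58330, the NADP-dependent malate dehydrogenase of the chloroplast, had 5.44, 7.53 and 5.36. MC array 6 was the highest on all 3 of them. In chlorophyll synthesis 1 of 3 named genes was a member: GSA1, an aminotransferase early in the pathway, with 5.63, 6.04 and 4.82. CHLM, a methyltransferase of the magnesium branch, had 3.84, 7.37 and 4.4 and PORB, a protochlorophyllide oxidoreductase, had 3.0, 3.6 and 2.93. CHLM therefore reached 5 on MC array 6 alone.

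Over the 16 nuclear photosynthesis members the median log2(NREL) was 6.63, 8.28 and 5.92 on MC arrays 4, 6 and 8. The same members had medians of 6.76, 6.15 and 2.98 on BSC arrays 3, 5 and 7. Each of the 16 was highest on MC array 6, and 15 were lowest on MC array 8, the exception being ATPC1, which was lowest on MC array 4. The median of the 37 plastid members was 7.02, 8.46 and 8.08 on MC arrays 4, 6 and 8, and 8.01, 7.78 and 4.08 on BSC arrays 3, 5 and 7. By these medians the plastid members had MC array 4 at the low end, and the nuclear photosynthesis members MC array 8. Over all members MC arrays 4 and 8 lay close together.

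The ranks within each array separated these 2 groups further. Over all members the highest value was on MC array 6 for 391 of 481, but the best rank was there for 130; it was on MC array 4 for 169, on MC array 8 for 174, and shared between arrays for 8. Among the 37 plastid members the best rank was on MC array 8 for 30, on MC array 6 for 5 and on MC array 4 for 1, while psbA had the same rank on all 3. Among the 16 nuclear photosynthesis members it was on MC array 6 for 11, on MC array 4 for 5 and on MC array 8 for 0. Accordingly 26 plastid probe sets were within the top 100 of MC array 8, against 18 on MC array 4 and 16 on MC array 6. On BSC arrays 3, 5 and 7 there were 14, 17 and 12 within the top 100. The median rank of the plastid members was 49 on MC array 8, 102 on MC array 4 and 114 on MC array 6.

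**Figure D3:**
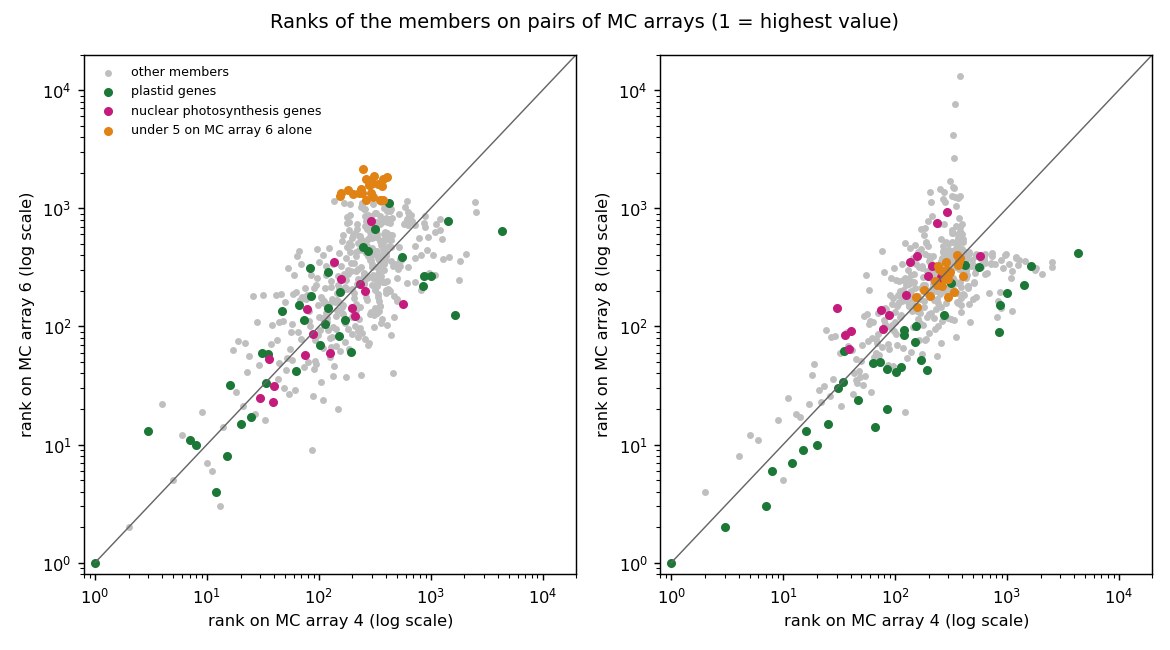
Rank of each of the 481 members on MC array 4 (horizontal axis) against its rank on MC array 6 (left) and on MC array 8 (right), on log scales with 1 as the highest value; the line marks equal ranks. Most plastid genes lie below the line on the right, with a better rank on MC array 8, and the 23 members under 5 on MC array 6 alone form a separate cloud on the left.

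Leading nuclear members outside photosynthesis included several without a symbol. AT1G19020 ranked 4, 22 and 8 on MC arrays 4, 6 and 8, with 10.74, 10.03 and 10.34, and was the best-ranked nuclear gene with a name. AT5G61820 had 8.35, 10.27 and 9.4, AT5G35735 had 9.45, 9.76 and 8.5 and AT4G24380 had 8.15, 9.37 and 8.42. AT4G24380 kept a narrow range of ranks, 43, 36 and 40. AT3G44190 had 8.59, 10.17 and 7.38, with MC array 8 well below the others. AER, the alkenal reductase, an enzyme that reduces reactive carbonyls from lipid peroxidation, had 8.22, 8.53 and 7.64. A related activity is that of AOR, the alkenal/one oxidoreductase of the chloroplast, a member with 4.97, 8.54 and 6.14. AOX1A, the alternative oxidase of the mitochondrial respiratory chain, had 7.62, 8.04 and 7.39 and lay above 7 on every MC array.

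Further named members belonged to no list and were picked for their known roles after their values had been seen, as were AOR, PIFI, AT4G01150, AT5G58330 and TPI. OPCL1, a CoA ligase of jasmonate synthesis, had 6.14, 8.92 and 7.43. GRX480, a glutaredoxin that interacts with TGA transcription factors, had 7.49, 7.99 and 7.92. PUB22, a ubiquitin ligase that restrains immune responses, had 7.15, 8.13 and 6.64, and BIK1, a cytoplasmic kinase acting downstream of immune receptors, had 6.62, 8.02 and 5.51. BIK1 was highest on MC array 6 and lowest on MC array 8. Of the 3 named genes on the list for wounding, touch and heat, CML37, a calmodulin-like protein, was a member with 5.03, 5.66 and 5.08. STZ, a zinc finger repressor, had 4.77, 5.78 and 4.54 and GSTU25, a glutathione transferase, had 1.58, 1.71 and 1.6, so STZ reached 5 on MC array 6 alone and GSTU25 lay under the median of each MC array.

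Sorted by keywords in their symbols and synonyms, other members fell into small classes. Membrane transport held 3 of 31 named probe sets: GTR1, a glucosinolate transporter, with 6.54, 9.18 and 7.86, AT5G52050, a detoxification efflux carrier, with 5.33, 8.3 and 5.25, and AT1G53210, a sodium/calcium exchanger, with 5.25, 8.04 and 5.27. All 3 were highest on MC array 6. Transcription or DNA binding held 3 of 48. WRKY6, a factor tied to senescence and pathogen responses, had 5.95, 5.85 and 5.57 and was the single member among 9 named WRKY genes. BZIP60, a factor of the unfolded protein response, had 6.06, 7.76 and 4.81, and BZIP28, of the same response, had 5.26, 7.11 and 2.24, which placed it among the least steady members. The classes ubiquitin or proteasome and protease or inhibitor held 1 of 56 (1.79%) and 1 of 48 (2.08%), near the 1.6% of all named probe sets. These were UBP23, a ubiquitin-specific protease, with 5.81, 6.41 and 5.68 and APA1, an aspartic proteinase, with 5.55, 8.31 and 6.36. The protein kinase or phosphatase class held 3 of 11. These were BIK1, and also SBPASE and PRK, which act on sugars and not on proteins and are counted there for their names alone. A class could not be given to 12893 of the 13559 named probe sets, 146 of the 217 named members among them. The classes therefore cover only a part of each function. The largest class outside the plastid genome, other enzymes, held 14 of 346, AER, AOX1A and AOR among them. The class redox or antioxidant held 0 of 30, RNA binding or processing 0 of 11 and chaperone or heat shock 0 of 5.

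Some lists had no member among the genes counted. The 3 genes counted for thioredoxins and antioxidant enzymes were not members, although TAPX, the thylakoid ascorbate peroxidase, was near the level with 4.68, 6.49 and 4.86. AT3G11630, on the same list but not counted for want of a matching symbol, was a member with 5.35, 6.83 and 5.04. Also not members were MT1C, a metallothionein, with 2.17, 2.65 and 2.29, and GI, a gene of the circadian clock, with 1.91, 1.87 and 1.85. Both genes counted among those commonly used as references for expression were not members: GAPC2, a glyceraldehyde-3-phosphate dehydrogenase, had 2.18, 3.42 and 2.32, and PEX4, a ubiquitin-conjugating enzyme of peroxisomes, had 2.14, 2.15 and 2.18. The probe set shared by AT1G07920, AT1G07930, AT1G07940 and AT5G60390, all on the reference list but not counted, was a member with 5.41, 8.6 and 5.84. Further elements of primary metabolism that were members include TPI, a triosephosphate isomerase, with 4.99, 7.61 and 5.18, and FATB, an acyl-ACP thioesterase, with 5.03, 6.43 and 4.72. No list or class covered cold-regulated genes. Of 4 named probe sets of the cold-regulated COR genes 2 were members, and these were picked after their values had been seen. COR47, a dehydrin, had 6.64, 7.61 and 6.22 and COR15B, a chloroplast protein, had 6.03, 8.0 and 3.5. COR15B varied by more than 4 log2 units over the MC arrays. Of other gene families counted by named probe sets, autophagy 8 held 2 members of 9 and basic leucine zipper 2 of 22. UDP-glucosyl transferase held 1 of 51, plant U-box 1 of 9, calmodulin-like 1 of 8 and the ROXY glutaredoxins 1 of 3. Cytochrome P450 held 0 of 30, SWEET 0 of 16, glutathione transferase 0 of 14 and NAC 0 of 1.

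How steady the ranks were depended on the set of probe sets. Over the 481 members Spearman's rho was 0.61 between MC arrays 4 and 6, 0.64 between 4 and 8 and 0.58 between 6 and 8. Over all 22746 probe sets it was 0.80, 0.88 and 0.79 for the same pairs, and over the 37 plastid members 0.85, 0.93 and 0.85. The 180 named members outside the plastid genome had 0.52, 0.56 and 0.40. These are descriptions across probe sets of the same arrays, which are not independent replicates, and the members span a narrower range of values than all probe sets.

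The best-ranked members had the narrowest ranges of rank. The range of a member's 3 ranks had a median of 55 places for the first 100 members by mean rank, 144 for the second 100, 231 for the third, 406 for the fourth and 925 for the remaining 81. A low mean rank leaves little room for a wide range, so this order follows in part from the ranks themselves. The median range was 95 places over the plastid members and 236.5 over the other named members. Among the first 10 ranks 4 probe sets were shared by all 3 MC arrays, among the first 25 there were 17 and among the first 100 there were 50. All 3 ranks were within the first 1000 for 408 of the 481 members.

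Among the members that stood for 1 named gene, psbA, ndhK, ndhJ, psbB and AT4G24380 had the smallest ranges of rank. ndhK ranked 34, 33 and 34 on MC arrays 4, 6 and 8. At the other end of the same members, AT2G24550 had a log2(NREL) of 5.14, 7.36 and 1.93 and ranked 379.5, 300 and 13223, so that on MC array 8 it was below the median of that array. BZIP28 ranked 343, 364 and 7663. petG, SAMDC, an enzyme of polyamine synthesis, with 3.1, 6.88 and 5.61, and AT5G16960, with 2.93, 5.47 and 5.26, were low on MC array 4 instead. Each of these 5 reached 5 on exactly 2 of the MC arrays.

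When members were chosen on 2 MC arrays only, the third array served as a view that had not chosen them. Of 387 probe sets at 5 or above on MC arrays 6 and 8, 78.8% reached 5 on MC array 4, against 1.78% of all probe sets there. Of 328 chosen on MC arrays 4 and 8, 93% reached it on MC array 6, against 5.09% of all. Of 376 chosen on MC arrays 4 and 6, 81.1% reached it on MC array 8, against 1.87% of all. Few were low on the array left out: 3, 0 and 4 probe sets had a value under 3 on MC arrays 4, 6 and 8.

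For the 23 members that fell short on MC array 6 alone, that choice made MC array 6 the lowest of the MC arrays, with a median of 4.53, beside 5.55 on MC array 4 and 5.66 on MC array 8. Their values on the BSC arrays did not enter the choice. On BSC array 7, the array with the fewest probe sets at 5, 21 of the 23 reached 5, with a median of 5.90, while BSC arrays 3 and 5 had medians of 4.71 and 5.23. Of the 305 members at 5 on all MC arrays, 40 reached 5 on BSC array 7. BSC array 7 was the highest of the BSC arrays for 20 of the 23, and for 6 of the 305. Over all probe sets BSC array 7 had the highest median of the BSC arrays, 2.06 beside 1.88 and 1.97. For what share of all probe sets it was the highest was not counted, so the 20 and the 6 have no background here. The 305 are no such background, since they were chosen for high values on all 3 MC arrays. AT5G59170 had 6.39, 4.7 and 6.57 on the MC arrays and 4.61, 6.18 and 8.16 on BSC arrays 3, 5 and 7. HRGP1, a hydroxyproline-rich glycoprotein of the cell wall, had 5.3, 4.29 and 6.09 on the MC arrays and 3.47, 5.27 and 5.93 on the BSC arrays. SEC5B, a subunit of the exocyst complex of secretion, had 6.19, 4.57 and 6.03 on the MC arrays and 4.71, 5.86 and 5.81 on the BSC arrays, and SHN3, a transcription factor of cuticle formation, had 5.45, 4.84 and 5.58 on the MC arrays and 5.15, 5.21 and 5.44 on the BSC arrays. On the BSC arrays, where the photosynthesis members had their lowest median on BSC array 7, this group had its highest there.

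No plastid gene was among these 23, and 18 of them had a name. Probe sets whose suffix marks them as shared by related sequences (_s_at or _x_at) made up 8 of the 23 (34.8%), against 18 of the 305 members on all 3 MC arrays (5.9%). Of all 22746 probe sets 935 had the suffix _s_at, 30 of them members, and 126 had the suffix _x_at, 5 of them members. The group included all 5 members with the suffix _x_at, among them those of AT4G08410, AT1G23720, AT5G06630 and HRGP1. Their part in the values of the group was not tested. These genes were described after their values had been seen.

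**Figure D4:**
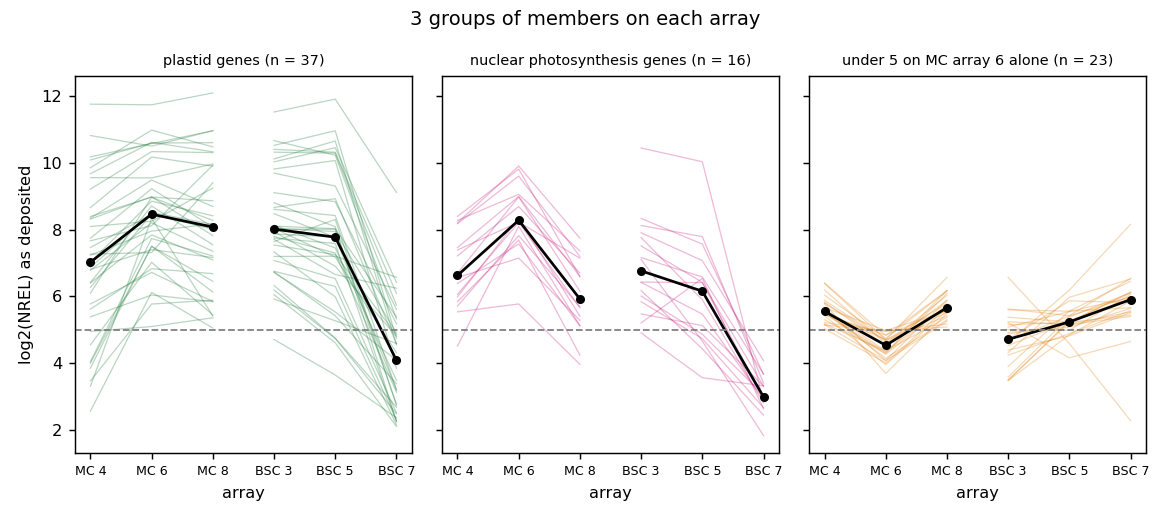
Log2(NREL) of 3 groups of members on MC arrays 4, 6 and 8 and BSC arrays 3, 5 and 7: 37 plastid genes, 16 nuclear photosynthesis genes and the 23 members under 5 on MC array 6 alone. Thin lines are members, black points are medians and the dashed line is the level of 5; BSC array 7 is low for the first 2 groups (medians of 4.08 and 2.98) and highest for the third (5.90).

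Most members were also strong on the BSC arrays, which is given here as a description and not as a comparison of the cell types. Of the 481 members 371 (77.1%) reached 5 on 2 or more of the 3 BSC arrays, and these were 66.4% of the 559 probe sets that did so there. When BSC array 7 was left out and both other BSC arrays had to reach 5, 354 members did (73.6% of the members and 65.3% of 542 probe sets). On BSC array 7 itself 64 members reached 5. The members' median rank was 241, 268 and 243 on MC arrays 4, 6 and 8, and 292, 298 and 982 on BSC arrays 3, 5 and 7.

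A few members lay under 5 on every BSC array: 12 in all (2.49%), of which 7 had a name, whereas 94.6% of all probe sets did. Without BSC array 7 there were 16 (3.33%, and again 94.6% of all probe sets), of which 11 had a name. COR15B, PSBY and petD were among them, with 3.77, 3.77 and 3.08, 4.9, 3.56 and 3.31 and 4.7, 3.64 and 2.35 on BSC arrays 3, 5 and 7, beside the MC values given above. CCR1, a cinnamoyl-CoA reductase of lignin synthesis, had 4.47, 5.82 and 5.2 on the MC arrays and 4.16, 3.62 and 3.52 on the BSC arrays. The others of the 7 were AT4G08170, AT5G51110 and AT5G52650. Separately, 16 members (3.33%) had every MC array above every BSC array, as had 2.85% of all probe sets, and 0 had every MC array below every BSC array, as against 3.14% of all. The 9 named among these 16 included rps19, PSBQA, AOX1A, WRKY6 and petD. PSBQA, AOX1A and CCR1 were named only through the study's list of genes that differed between the cell types on these arrays, so that they have a name here because of such a difference. AOX1A had 7.21, 6.17 and 5.01 on the BSC arrays, WRKY6 had 5.12, 3.75 and 4.32 and PSBQA had 6.43, 6.41 and 3.3. When BSC array 7 was left out, 16 members (3.33%) had every MC array above both remaining BSC arrays, as had 9.75% of all probe sets, and 59 (12.3%) had every MC array below both, as had 7.02% of all, 21 of these with a name. Among these were HPR, AER, COR47, BIK1 and GSA1. BIK1 had 9.92, 9.05 and 3.66 and GSA1 had 7.76, 8.3 and 5.0 on BSC arrays 3, 5 and 7. Which of the 2 counts was larger therefore depended on BSC array 7, and membership itself was set by the MC values.

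The level of 5 lay within a continuous range of values. The second-highest MC value, on which membership turned, was between 5 and 5.1 for 24 probe sets and between 4.9 and 5 for 34. The named members closest to the level were AT5G64250 with 5.03, 6.17 and 4.66, FATB and AT3G56360 with 4.2, 5.92 and 5.04. The named probe sets closest to it from below were CML38, a calmodulin-like gene, with 3.68, 5.87 and 4.99, AT3G47120 with 4.96, 4.99 and 5.08 and AT5G40490 with 4.87, 4.98 and 5.08. These 6 differed by less than 0.1 in the value that decided whether they were members.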

How the data were processed

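The authors deposited 1 table of log2 values per probe set, log2(NREL), for 3 MC and 3 BSC samples hybridized to ATH1 arrays. Per the submitters' processing notes they were normalized and summarized with RMA in Partek 6.6. The paper's methods name another version of Partek. The values were used as deposited; 0 value columns were left unused.

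Probe sets were named through the platform annotation, with symbols brought up to date in the gene table of TAIR10.1 through gene numbers, and 46 more through the study's gene list. Those standing for several genes got no single name. The strongest probe set stood for a gene. Members, gene lists (19) and keyword classes were chosen with earlier results of these data known. Of 237 listed genes, 13 whose symbol the gene table does not hold were dropped. Lists for carbonic anhydrases, aquaporins, bundle sheath and epidermis had no named probe set. Genes named in the text were the 25 best-ranked named members, the 4 markers, up to 5 members of each list, the 5 steadiest and 5 least steady, 3 on each side of the level and up to 3 of each class; others are said to be picked later, and further plastid genes, members on BSC grounds and those short on MC array 6 alone were also chosen after their values were seen. Promoter motifs and protein lengths were not analysed here.

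Ranks, Spearman's rho and counts were computed in Python 3.11.15 with pandas 2.3.3 and numpy 2.4.6, tested on simulated data; figures were drawn with matplotlib 3.10.9. Whether the pools of a cell type came from separate plants is not given in the sources used here. Alternatives were other levels, numbers of arrays, scalings and probe sets, and each array left out.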

Additional observations from a re-analysis of the deposited data

How the results depend on the processing

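The rule decided how many probe sets counted as abundant: 481 became 247 at a level of 6 and 305 when all 3 MC arrays had to reach 5, and 8 of 10 settings kept the number within 1.5 times. Leaving out an MC array gave 328 to 387, a stricter rule because both other MC arrays then had to reach 5. The 16 photosynthesis genes ranged from 11 to 17 over all settings, 17 being the number with listed genes kept that lacked a matching symbol, a setting added after the data were seen. The median rho over the 3 pairs of MC arrays, 0.61 over the members, was 0.55 at a level of 6, 0.65 with all 3 MC arrays at 5, 0.58 after quantile normalization, 0.54 with a mean of at least 5 and 0.80 over all Arabidopsis probe sets. When an MC array was left out, rho of the remaining pair, over members chosen on that pair, was 0.63 to 0.73, the highest without MC array 6. The share of members also abundant on the BSC arrays, 77.1%, was 81.3% at a level of 4.5, 85.9% with all 3 MC arrays at 5, 66.6% after quantile normalization and 68.4% with a mean of at least 5. It was 79.3% to 85.1% when an MC array was left out and both other MC arrays had to reach 5. With a BSC array left out and both others required to reach 5 it was 9.56% to 73.6%: 11.9% without BSC array 3 and 9.56% without BSC array 5, where BSC array 7 had to reach 5, and 73.6% without BSC array 7. Leaving out MC arrays, or BSC arrays 3 and 5, for this share was added after the data were seen. Beyond these constructions, causes were not tested. No paired analysis was run, because the sources used here do not give which MC and BSC pools shared a preparation. No result comes from a test.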
